A study of Mus musculus with 62 samples.

Results

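The acetylcholine receptor of the neuromuscular junction and the genes that muscle turns on when it loses its nerve were followed in the mouse diaphragm through 10 genes, chosen by name from the 47643 genes of the expression table: the receptor subunits Chrna1, Chrnb1, Chrnd, Chrne and Chrng, the synaptic kinase Musk, and the denervation-induced genes Myog, Runx1, Gadd45a and Ncam1. Diaphragms of 62 mice were profiled by RNA-seq at 2, 4, 6 and 8 weeks post implantation, with 1 library per mouse. There were 3 groups, in which the flank held a cachectic melanoma xenograft, a non-cachectic melanoma xenograft or, in controls, a mock injection. Each condition held 5 mice, apart from the cachectic group at 8 weeks with 7. Both tumors were patient-derived human melanomas and each tumor group rests on a single tumor line, so that cachexia and tumor line cannot be told apart. The mice were female, 2 months old at injection and of the NCI Ath/nude stock, which lacks a thymus and therefore mature T cells, although the sample labels give the strain as C57BL6/J.

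Every muscle fiber of the diaphragm is driven by a branch of the phrenic nerve at a single synapse, where acetylcholine opens a pentameric receptor on the fiber surface. The adult receptor is built from α1, β1, δ and ε subunits, and the fetal receptor carries γ in the place of ε. Nerve-derived agrin acts through LRP4 and the receptor tyrosine kinase MuSK to cluster the receptors beneath the nerve terminal, and electrical activity keeps the same genes silent in the nuclei away from the synapse. When a muscle is denervated or paralyzed this silencing is lost, myogenin accumulates, and Chrna1, Chrng, Chrnd, Musk, Runx1, Gadd45a and Ncam1 are known to increase along the whole fiber, while Chrne depends more on synaptic signals.

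Within 250 bases before their RefSeq start sites, 3 of the subunit genes hold the E-box CAGCTG, a letter pattern that myogenic factors such as myogenin can bind, and Chrne also holds the N-box CCGGAA, the pattern known for synapse-specific transcription. The 3 windows are shown because the α1, ε and γ subunits differ most in how innervation sets them. They are written 5′ to 3′ on the strand of the gene, from the GRCm38.p6 assembly, with every CAGCTG and CCGGAA in capitals.

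Chrna1, chr2:73580339-73580588, minus strand: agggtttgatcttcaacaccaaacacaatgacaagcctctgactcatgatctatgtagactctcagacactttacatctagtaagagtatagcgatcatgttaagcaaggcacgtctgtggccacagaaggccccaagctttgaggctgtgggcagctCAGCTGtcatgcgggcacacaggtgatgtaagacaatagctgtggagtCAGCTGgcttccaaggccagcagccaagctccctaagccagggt

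Chrne, chr11:70619195-70619444, minus strand: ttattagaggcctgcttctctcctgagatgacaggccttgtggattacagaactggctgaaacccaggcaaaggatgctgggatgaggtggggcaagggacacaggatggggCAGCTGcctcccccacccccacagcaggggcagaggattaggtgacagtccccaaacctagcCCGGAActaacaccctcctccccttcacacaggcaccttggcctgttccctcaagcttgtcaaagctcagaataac

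Chrng, chr1:87205561-87205810, plus strand: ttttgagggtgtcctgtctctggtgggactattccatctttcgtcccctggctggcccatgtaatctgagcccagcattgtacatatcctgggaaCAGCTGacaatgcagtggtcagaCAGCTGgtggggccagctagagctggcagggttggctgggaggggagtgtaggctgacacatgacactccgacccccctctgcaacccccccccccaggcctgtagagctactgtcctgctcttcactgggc

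Chrna1 held CAGCTG at 92 and 44 bases before the start, Chrng at 155 and 132 bases, and Chrne at 138 bases with CCGGAA at 76 bases. A window was given for 8 of the 10 genes, and for Chrnd and Ncam1 there was none. Chrnb1 and Myog held neither pattern. Among the others Musk held CAGCTG at 68 bases before the start, Gadd45a CCGGAA at 23 bases and Runx1, in 1 of its 2 windows, CCGGAA at 106 bases. The Chrng window lies wholly inside the GENCODE span of that gene given below, since the RefSeq start differs. Both strands were searched, and the 2 patterns do not overlap each other. Of 32851 promoter windows of this length, 13% held CAGCTG and 12% held CCGGAA. A match describes the letters only.

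In the GENCODE annotation of GRCm38, the genes lie on chromosome 2 at 73563215 to 73580338 (Chrna1), chromosome 11 at 69784036 to 69795943 (Chrnb1), chromosome 1 at 87190607 to 87200070 (Chrnd), chromosome 11 at 70614883 to 70619216 (Chrne), chromosome 1 at 87204657 to 87212694 (Chrng), chromosome 4 at 58285960 to 58374303 (Musk), chromosome 1 at 134289989 to 134292548 (Myog), chromosome 16 at 92601466 to 92826149 (Runx1), chromosome 6 at 67035096 to 67037457 (Gadd45a) and chromosome 9 at 49502136 to 49798925 (Ncam1). Chrng begins 4586 bases after the end of Chrnd, on the same strand. Exons of Gadd45a share 337 bases with the opposite-strand transcript E230016M11Rik, exons of Runx1 share 106 bases with Gm26626, and exons of Ncam1 share 417 bases with Gm11149. The use of strand in counting is not given in the sources used here, so reads in these stretches cannot be assigned with certainty. E230016M11Rik lay between 0 and 1.7 TPM over the 62 mice, Gm26626 between 0 and 0.374 TPM, and Gm11149 was listed at 0 in every mouse.

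Values are TPM, a length-normalized abundance in which every library is scaled to the same total. Comparisons used limma on log2(TPM + 1), and a gene is said to be higher or lower at an adjusted p under 0.05 (Benjamini-Hochberg, over 13578 genes). This scale shrinks the differences of genes near 1 TPM, so the ratio of the mean TPM is given beside the log2 fold change. Of the 10 genes, 9 passed the filter on low values, and Chrng did not. In bulk muscle, fewer cells of a type and less RNA per cell cannot be told apart.

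The muscle origin of the libraries was checked with 12 skeletal muscle markers, which were all detected and summed to between 46150 and 99020 TPM per mouse. Of the 62 libraries, 4 listed between 15069 and 16389 genes above 0, against 17909 to 19057 in the other 58, and took 54.4% to 61.5% of their TPM from mitochondrial genes, against 32.5% to 50.1%. At 2 weeks these were replicates 3 and 4 of the cachectic group and replicate 5 of the non-cachectic group, and at 8 weeks replicate 3 of the cachectic group. The main counts of called genes are given with and without them, while some other values are given with all mice only. In 6 other libraries the liver markers had a mean log2 level between 7.11 and 10.3, and these were control replicates 2, 4 and 5 and cachectic replicate 1 at 2 weeks, and in the cachectic group also replicate 5 of week 6 and replicate 2 of week 8. At 6 weeks the mitochondrial share was 34.3% to 44.9% in cachectic mice and 44.9% to 47.9% in controls. At 8 weeks it was 32.5% to 41.6% in cachectic mice other than replicate 3 and 40.9% to 49.3% in controls. In a fixed total a lower share leaves more TPM to the other genes, and settings with these genes removed are given in the last section. Sequencing depth cannot be read from TPM and is unknown.

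Control mice set the order of the genes. Over the 20 of them, Chrnb1, the β1 subunit, was the most abundant of the 10 genes, with a median of 26.7 TPM and a range of 21.2 to 35.9. Gadd45a followed with 14.4 TPM (8.59 to 21.9), Myog with 10.7 (6.32 to 18.3), Chrne with 7.27 (5.24 to 10.6), Chrna1 with 6.61 (4.61 to 8.73), Chrnd with 5.10 (1.67 to 7.00), Musk with 4.39 (3.28 to 5.79), Ncam1 with 3.65 (2.30 to 5.87), Runx1 with 0.915 (0.724 to 1.38) and Chrng with 0.121 (0.0112 to 0.205). Neighbors in this order overlapped in their ranges from Chrnb1 down to Ncam1, while Runx1 lay below all 8 of them and Chrng below Runx1 in every control mouse. No change with time was called among the 9 genes between control mice at 4 and 8 weeks, where limma called 0 genes in all (0%) and 0 of the 9 had an unadjusted p under 0.05.

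**Figure D1:**
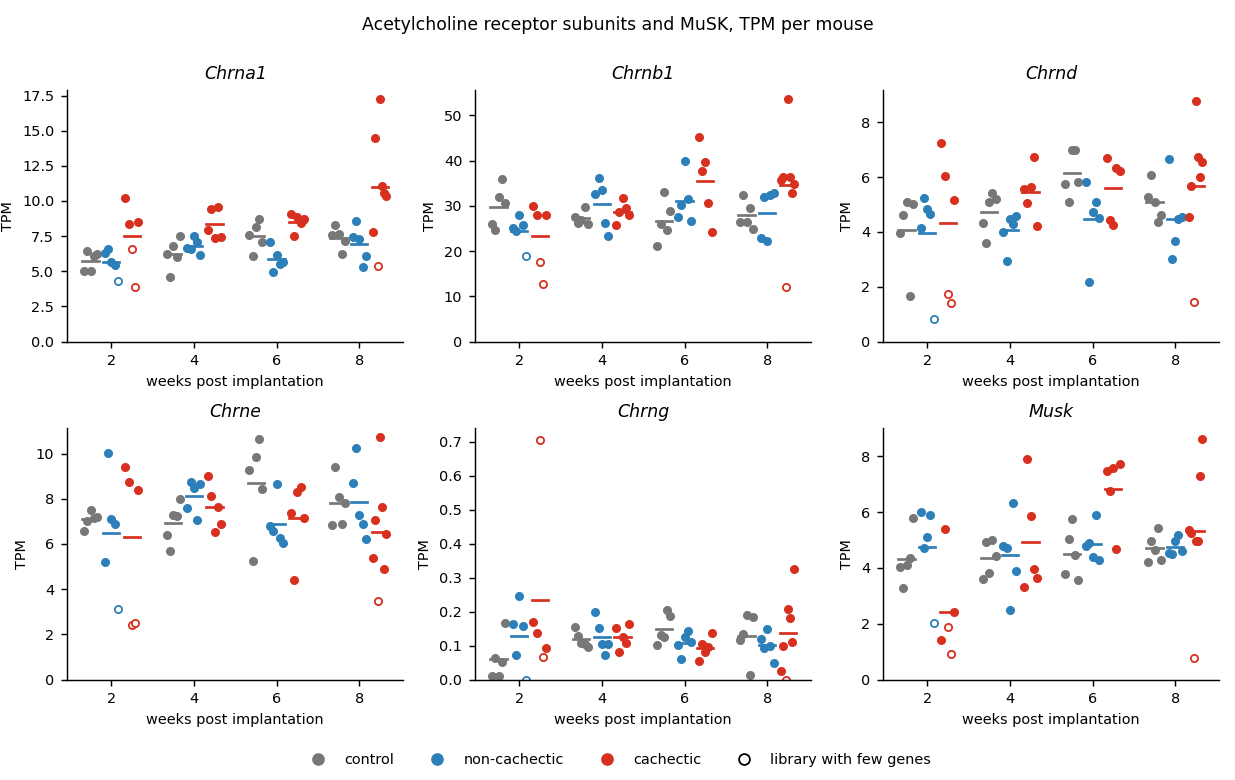
TPM of the 5 acetylcholine receptor subunit genes and Musk in each of 62 mice (points), by weeks post implantation (x axis) and group (color), with horizontal lines at the group means; open points are the 4 libraries with few genes. Chrna1 reached 17.2 TPM in cachectic mice at 8 weeks, against at most 8.28 TPM in controls, while Chrng stayed below 1 TPM in every mouse.

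Chrne exceeded Chrng in every mouse. Chrng, the fetal γ subunit, did not reach 1 TPM in any of the 62 mice, and it was listed at 0 in 2 of them, both libraries with few genes. The share of γ in the sum of γ and ε TPM had a median of 1.46% over all mice. The highest share, 22.5%, was that of cachectic replicate 3 at 2 weeks, with 0.705 TPM of Chrng and 2.42 TPM of Chrne, which is also one of the libraries with few genes. At 8 weeks the share lay between 0 and 4.83% in cachectic mice and between 0.177% and 2.30% in controls, and the ranges overlapped.

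Chrna1, which encodes the α1 subunit that carries the acetylcholine binding sites, was higher in cachectic mice at 8 weeks. Control mice at 8 weeks had 7.57, 8.28, 7.64, 6.24 and 7.17 TPM, and non-cachectic mice had 7.45, 8.56, 7.27, 5.27 and 6.07 TPM. The 7 cachectic mice ranged from 5.34 to 17.2 TPM with a median of 10.6. Cachectic mice of replicates 2, 4, 5, 6 and 7 lay above every control, replicate 1 with 7.76 TPM lay among them, and replicate 3, the library with few genes, lay below them. The mean was 1.49 times that of controls, a log2 fold change of 0.45 ± 0.16 (SE; adjusted p = 0.0425, limma), and 1.59 times that of non-cachectic mice (0.54 ± 0.16, adjusted p = 0.0135). Without the libraries with few genes the fold changes were 0.59 (adjusted p = 9.43e-05) and 0.68 (adjusted p = 1.19e-05). Without the 6 libraries high in liver markers, cachectic replicate 2 among them, they were 0.37 (adjusted p = 0.115), which is not called, and 0.46 (adjusted p = 0.0456). The call against controls was lost in 8 of 12 fits that left out 1 mouse, namely control replicates 1, 3, 4 and 5 and cachectic replicates 2, 4, 5 and 6, with fold changes down to 0.33 and adjusted p up to 0.131. The call against non-cachectic mice was lost without non-cachectic replicate 4 or cachectic replicate 4, with an adjusted p of up to 0.0684 and a fold change of at least 0.43.

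At 4 and 6 weeks Chrna1 was not called against either group. At 6 weeks cachectic mice had 9.05, 7.51, 8.88, 8.46 and 8.74 TPM, controls had 7.60, 6.08, 8.15, 8.73 and 7.06 TPM, and non-cachectic mice had 7.10, 4.92, 6.16, 5.53 and 5.67 TPM. All 5 cachectic mice at 6 weeks were above all 5 non-cachectic mice, yet the fold change of 0.48 ± 0.17 did not pass the adjustment (adjusted p = 0.0825, limma); it did without the libraries with few genes, which are all from other weeks and enter only the common estimate of the spread (adjusted p = 0.00325). Of all genes tested, 13.6% had cachectic mice wholly above non-cachectic mice at 6 weeks. At 4 weeks cachectic mice had 7.96, 9.44, 7.38, 9.57 and 7.46 TPM against 6.26, 4.61, 6.78, 5.99 and 7.49 TPM in controls (0.38 ± 0.17, adjusted p = 0.811, limma). Cachectic and control mice overlapped at both times.

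The other adult subunits did not share the call of Chrna1. Chrnb1 in cachectic mice at 8 weeks ranged from 12.1 to 53.5 TPM with a median of 35.8, against 26.5, 32.4, 26.3, 29.5 and 24.8 TPM in controls (0.21 ± 0.19, adjusted p = 0.532, limma). Its lowest value was replicate 3, and the other 6 cachectic mice lay above every control. The share of all genes for which this held without replicate 3 is not given here. Without the libraries with few genes Chrnb1 was higher at 8 weeks, by 0.43 against controls (adjusted p = 0.00745) and by 0.42 against non-cachectic mice (adjusted p = 0.0100). With replicate 3 left out alone the difference from controls also passed, with an adjusted p of 0.0462, and it passed as well with all libraries under median-ratio scaling (adjusted p = 0.0236). Chrnd, the δ subunit, ranged from 1.44 to 8.78 TPM in cachectic mice and from 4.38 to 6.08 TPM in controls at 8 weeks, with a fold change of 0.04 (95% interval -0.49 to 0.57).

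Chrne, the ε subunit that marks the adult receptor, went the other way in value without passing the test. At 8 weeks controls had 6.84, 9.43, 8.06, 6.89 and 7.82 TPM, and cachectic mice ranged from 3.48 to 10.7 TPM with a median of 6.43. The fold change was -0.28 (95% interval -0.70 to 0.15) against controls and -0.28 (95% interval -0.71 to 0.15) against non-cachectic mice, with adjusted p of 0.430 and 0.449 (limma). The groups overlapped.

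The ratio of α1 to ε within a mouse separated the groups at 8 weeks, a comparison chosen after the values were seen and given without a test. It was 1.11, 0.878, 0.948, 0.905 and 0.918 in controls, between 0.764 and 1.00 in non-cachectic mice, and between 1.45 and 2.16 in cachectic mice with a median of 1.61. All 7 cachectic mice lay above the other 10 mice, and without replicate 3, a library with few genes at 1.53, the cachectic range was the same. At 2 weeks the cachectic mice, with 0.957 to 2.73, also lay wholly above controls, with 0.669 to 0.914, while non-cachectic mice reached 1.38. Libraries with few genes gave the 2.73 and 1.56 of cachectic replicates 3 and 4 and the 1.38 of non-cachectic replicate 5. Without them the cachectic ratios at 2 weeks were 1.09, 0.957 and 1.01, and non-cachectic mice reached 1.21. All 4 libraries with few genes, in both tumor groups, had ratios above every control of their week. At 4 weeks the ratio was 0.885 to 1.25 in cachectic mice and 0.810 to 0.976 in controls, and at 6 weeks it was 0.993 to 1.71 and 0.820 to 1.16, and these ranges overlapped.

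**Figure D2:**
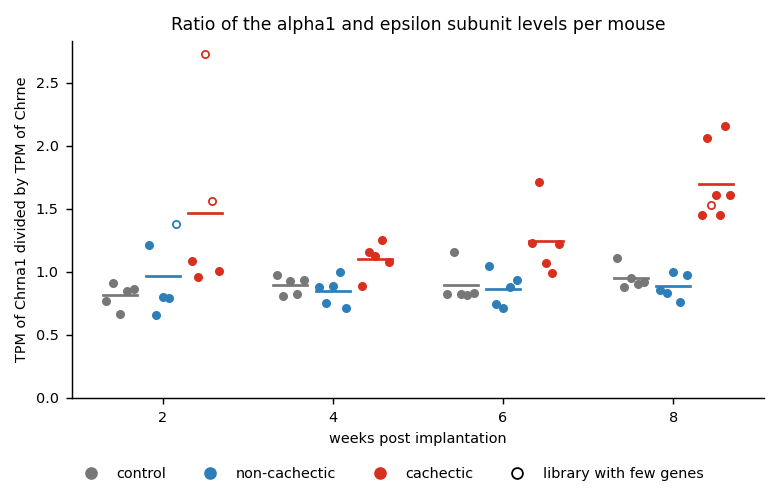
Ratio of Chrna1 TPM to Chrne TPM in each of 62 mice (points) by weeks post implantation and group, with lines at the group means; open points are libraries with few genes. At 8 weeks cachectic mice lie between 1.45 and 2.16 and controls between 0.878 and 1.11, and at 2 weeks between 0.957 and 2.73 and between 0.669 and 0.914.

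Musk, the kinase that organizes the postsynaptic membrane, was lower in cachectic mice at 2 weeks and was called at no later time. At 2 weeks cachectic mice had 1.43, 5.39, 1.89, 0.901 and 2.42 TPM, against 4.02, 3.28, 4.09, 4.34 and 5.79 TPM in controls (-0.75 ± 0.26, adjusted p = 0.0313, limma). It was 1 of 9 genes called in a comparison in which 27.8% of all genes tested were lower and 1.41% higher. Without the libraries with few genes, 0 of the 9 genes and 0 genes in all were called at 2 weeks, and the call of Musk was also lost without control replicate 2, 4 or 5 or without cachectic replicate 3 or 4, each left out alone. Of these, the 3 control libraries are high in liver markers, and without the 6 such libraries 0 of the 9 genes were called at 2 weeks. At 6 weeks cachectic mice had 7.46, 6.75, 7.59, 4.68 and 7.72 TPM and controls had 3.78, 5.02, 5.76, 4.46 and 3.56 TPM; 4 of 5 cachectic mice lay above every control (0.51 ± 0.26, adjusted p = 0.277, limma; 0.0281 without the libraries with few genes). At 8 weeks the fold change against controls was 0.01 (95% interval -0.48 to 0.49).

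At 2 weeks the 3 cachectic libraries that listed the usual number of genes had 10.2, 8.34 and 8.50 TPM of Chrna1, all above the controls, which had 5.05, 6.43, 5.02, 6.10 and 6.21 TPM. The same held for Chrnd and Chrne, so that 3 of the 9 genes were wholly above controls among these mice, against 1.36% of all genes tested. None of the 3 was called. Among the mice compared, control replicates 2, 4 and 5 and cachectic replicate 1 were high in liver markers. Against non-cachectic mice, also without the libraries with few genes, Chrna1 and Chrnb1 lay wholly above, and Chrnd and Chrne did not. The share of all genes in that comparison is not given here.

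Gadd45a had the largest log2 fold change of the 9 genes tested at 8 weeks, against both groups. It encodes a stress-inducible nuclear protein that acts in chromatin and DNA demethylation and is known to rise in denervated and fasted muscle. At 4 weeks cachectic mice had 33.6, 42.5, 22.0, 30.1 and 17.1 TPM, controls had 12.9, 9.35, 13.9, 14.6 and 16.9 TPM, and non-cachectic mice had 11.6, 11.6, 9.31, 13.7 and 12.3 TPM. Every cachectic mouse was above every mouse of the other groups, and the mean was 2.15 times that of controls. The fold changes of 1.01 ± 0.33 against controls and 1.19 ± 0.33 against non-cachectic mice did not pass the adjustment (adjusted p = 0.454 and 0.252, limma).

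At 6 weeks cachectic mice had 64.8, 33.3, 16.6, 41.0 and 29.4 TPM of Gadd45a and controls had 14.5, 21.9, 17.7, 12.8 and 18.0 TPM. Replicate 3 lay within the range of controls and the other 4 above it (0.97 ± 0.33, adjusted p = 0.0660, limma). Against non-cachectic mice the fold change was 0.98 ± 0.33 (adjusted p = 0.0695). Without cachectic replicate 3 the fold changes were 1.22 (adjusted p = 0.0233) and 1.23 (adjusted p = 0.0248).

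At 8 weeks Gadd45a ranged from 9.56 to 102 TPM in cachectic mice, with a median of 44.7. Controls had 15.3, 12.9, 14.3, 15.3 and 16 TPM and non-cachectic mice had 13.7, 17.4, 25.1, 13.6 and 13.8 TPM. The lowest cachectic value was again the library with few genes, and the other 6 cachectic mice had at least 19.0 TPM, above every control. For this separation too, the share of all genes is not given here. The mean was 3.36 times that of controls (1.31 ± 0.31, adjusted p = 0.0018, limma) and 2.96 times that of non-cachectic mice (1.18 ± 0.31, adjusted p = 0.00599). Both calls were kept in all 12 fits that left out 1 mouse, with fold changes of 1.08 to 1.63 and 0.95 to 1.49. Both were lost when only the conditions compared were fitted (adjusted p = 0.187 and 0.292) and by Dunn's rank test (adjusted p = 0.216 and 0.304), as were those of the other genes called at 8 weeks. E230016M11Rik, which shares exon bases with Gadd45a, lay between 0.105 and 1.18 TPM in cachectic mice and between 0.277 and 0.691 TPM in controls at 8 weeks.

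Runx1, a transcription factor that muscle switches on after denervation and that limits wasting of denervated fibers, was higher in cachectic mice at 6 and 8 weeks. At 4 weeks cachectic mice had 1.19, 1.76, 1.77, 2.18 and 1.40 TPM, controls had 1.12, 0.986, 0.940, 0.906 and 0.731 TPM, and non-cachectic mice had 0.953, 0.912, 0.595, 0.781 and 0.663 TPM. As for Gadd45a, the cachectic mice at 4 weeks lay wholly above both other groups, with fold changes of 0.45 ± 0.16 and 0.57 ± 0.16 that did not pass (adjusted p = 0.547 and 0.239, limma). Gadd45a and Runx1 were the 2 of 9 genes that lay wholly above controls at 4 weeks, against 4.91% of all genes tested, and wholly above non-cachectic mice, against 5.52%.

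At 6 weeks Runx1 had 2.29, 2.80, 2.07, 1.95 and 1.29 TPM in cachectic mice and 0.724, 0.918, 0.922, 0.866 and 1.17 TPM in controls, again without overlap. The mean was 2.26 times that of controls (0.67 ± 0.16, adjusted p = 0.0051, limma), and the call was kept in all 10 fits that left out 1 mouse. Non-cachectic mice had 1.36, 1.14, 1.16, 1.5 and 0.845 TPM, and cachectic replicate 5 lay among them (0.47 ± 0.16, adjusted p = 0.0635; 0.0234 without that mouse).

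At 8 weeks Runx1 ranged from 0.298 to 3.06 TPM in cachectic mice with a median of 2.34, against 0.912, 1.17, 1.23, 1.04 and 1.38 TPM in controls and 0.882, 0.800, 1.20, 1.02 and 1.18 TPM in non-cachectic mice. The 6 cachectic mice other than replicate 3 had at least 2.01 TPM, above all mice of both other groups. The share of all genes so separated without replicate 3 is not given here. The mean was 1.84 times that of controls (0.47 ± 0.15, adjusted p = 0.0221, limma) and 2.08 times that of non-cachectic mice (0.56 ± 0.15, adjusted p = 0.00598). The call against controls was lost without control replicate 1 or 4 or cachectic replicate 7, with adjusted p of up to 0.0636, and with a pseudocount of 0.1 (adjusted p = 0.118). Without the libraries with few genes the fold changes were 0.67 and 0.76.

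Runx1 and Gadd45a are also expressed by leukocytes. Of 11 leukocyte markers, 10 were tested and 1 was higher in cachectic mice at 8 weeks (6.65% of all genes), the neutrophil gene S100a8 (1.33 ± 0.44 against controls, adjusted p = 0.0315, limma), and Cd3e, a T cell marker, had a median of 0 over all mice. The sum of these markers had a median of 571 TPM in cachectic mice at 8 weeks (174 to 1030), 321 TPM in controls (203 to 488) and 294 TPM in non-cachectic mice (188 to 1176). The highest cachectic sum was that of replicate 3, a library with few genes. This library had the lowest Runx1 and Gadd45a levels of its group, and also the lowest Chrnb1, Chrnd, Musk, Myog and Ncam1 levels. At 4 weeks, when cachectic mice lay wholly above controls for both genes, the sum was 193 to 284 TPM in cachectic mice and 255 to 1657 TPM in controls. The part of leukocytes in the Runx1 and Gadd45a levels was not tested.

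**Figure D3:**
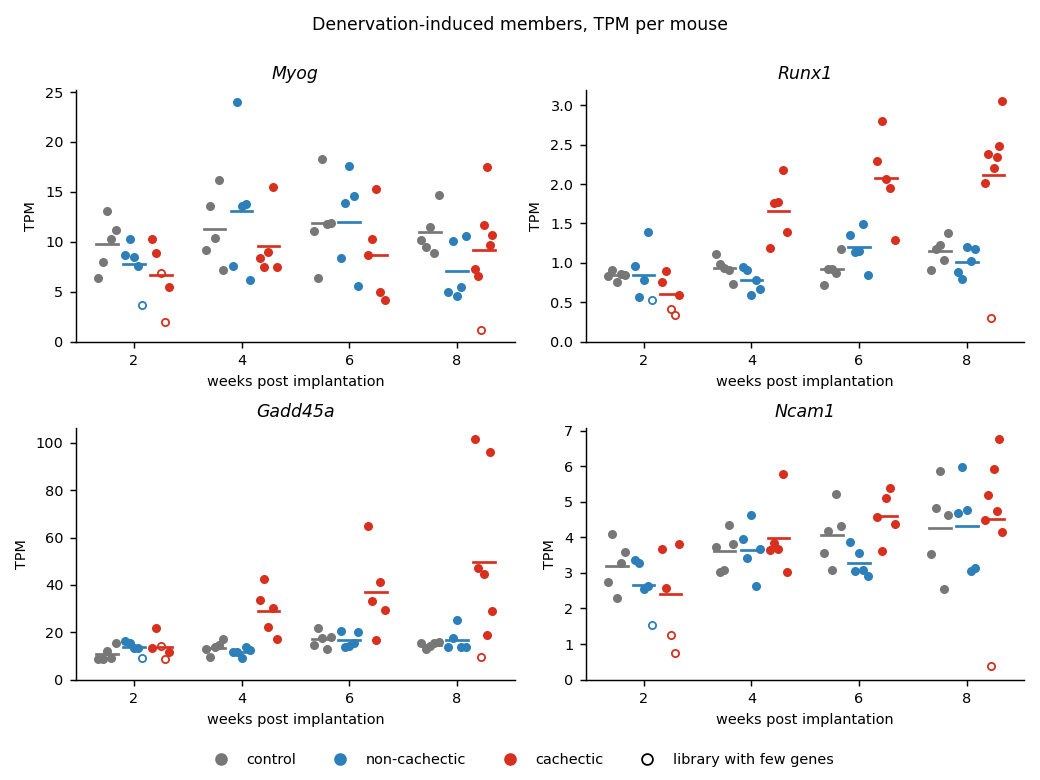
TPM of the 4 denervation-induced genes Myog, Runx1, Gadd45a and Ncam1 in each of 62 mice (points) by weeks post implantation and group, with lines at the group means; open points are libraries with few genes. Gadd45a and Runx1 are above both other groups in all 5 cachectic mice at 4 weeks, whereas the groups overlap for Myog and Ncam1.

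Myog, which encodes the myogenic factor myogenin that drives receptor and Musk transcription in denervated muscle, was not called in any comparison. At 8 weeks controls had 10.2, 9.46, 11.4, 8.92 and 14.7 TPM and cachectic mice ranged from 1.13 to 17.5 TPM with a median of 9.66 (-0.43, 95% interval -1.13 to 0.27). At 6 weeks cachectic mice had 8.65, 10.3, 15.2, 4.95 and 4.19 TPM and controls had 11.1, 6.32, 18.3, 11.7 and 11.9 TPM (-0.47, 95% interval -1.23 to 0.29). The groups overlapped at both times, and these intervals include differences of more than 1 log2 unit downward but not upward.

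Ncam1, a cell adhesion molecule that spreads over the surface of denervated fibers and is also made by Schwann cells and satellite cells, was not called either. At 8 weeks cachectic mice ranged from 0.379 to 6.76 TPM with a median of 4.73, and controls had 3.53, 4.83, 5.87, 2.54 and 4.62 TPM (-0.05, 95% interval -0.53 to 0.43). Schwann cell markers summed to 39.2 to 133 TPM in cachectic mice and 85.5 to 144 TPM in controls at 8 weeks, with S100b lower in cachectic mice as 1 of 9 markers tested. Satellite cell markers summed to 4.74 to 36.6 TPM and 24.9 to 28.8 TPM in the same groups, with 0 of 6 called. At 6 weeks the satellite cell sum was 28.6 to 39.6 TPM in cachectic mice, wholly above the 21.7 to 26.6 TPM of controls, with Chodl called (0.96, adjusted p = 0.00227, limma), and the Schwann cell marker Cdh19 was called as well (0.47, adjusted p = 0.0329). At 8 weeks the lowest cachectic sum for both lists was that of replicate 3, the library with few genes, and their part in the Ncam1 level was not tested.

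Counted together, 3 of the 9 genes tested were higher in cachectic mice than in controls at 8 weeks, namely Chrna1, Runx1 and Gadd45a, against 6.65% of all genes tested that were higher and 14.8% that were called in either direction. The same 3 genes were higher than in non-cachectic mice, against 6.75% higher and 12.9% called. At 6 weeks Runx1 was the 1 gene called against controls (5.62% of all genes were higher) and 0 were called against non-cachectic mice (4.28%), where 3 had an unadjusted p under 0.05. At 4 weeks 0 were called in either comparison (0.0221% and 0.0295% of all genes), and 3 and 2 had an unadjusted p under 0.05. At 2 weeks 0 were called against non-cachectic mice (0% of all genes), where 1 had an unadjusted p under 0.05. At 6 weeks 1 of the 9 genes, Runx1, lay wholly above controls (15.9% of all genes), and at 8 weeks 0 of the 9 did with all mice (2.52%). Without the libraries with few genes 3 did at 8 weeks, namely Chrnb1, Runx1 and Gadd45a. The share of all genes in that setting is not given here, so this count is not set against a background. The comparisons with controls and with non-cachectic mice share the cachectic mice. These genes and the wider lists below were chosen with earlier results of these data known, so the shares of all genes are no independent yardstick. The median fold change of the 9 genes at 8 weeks was 0.04 against controls and 0.19 against non-cachectic mice, beside -0.09 and -0.08 over all genes tested.

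Leaving out the 4 libraries with few genes raised these counts as well as the background. At 8 weeks 4 genes were higher than in controls (Chrna1, Chrnb1, Runx1 and Gadd45a), against 22.2% of all genes, and 5 were higher than in non-cachectic mice (Chrnd in addition), against 23.2%. At 6 weeks 4 genes were higher than in controls (Chrnb1, Musk, Runx1 and Gadd45a), against 26.9%, and 3 than in non-cachectic mice (Chrna1, Runx1 and Gadd45a), against 22.1%. At 4 weeks Runx1 and Gadd45a were higher in both comparisons, against 1.52% and 1.88% of all genes.

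**Figure D4:**
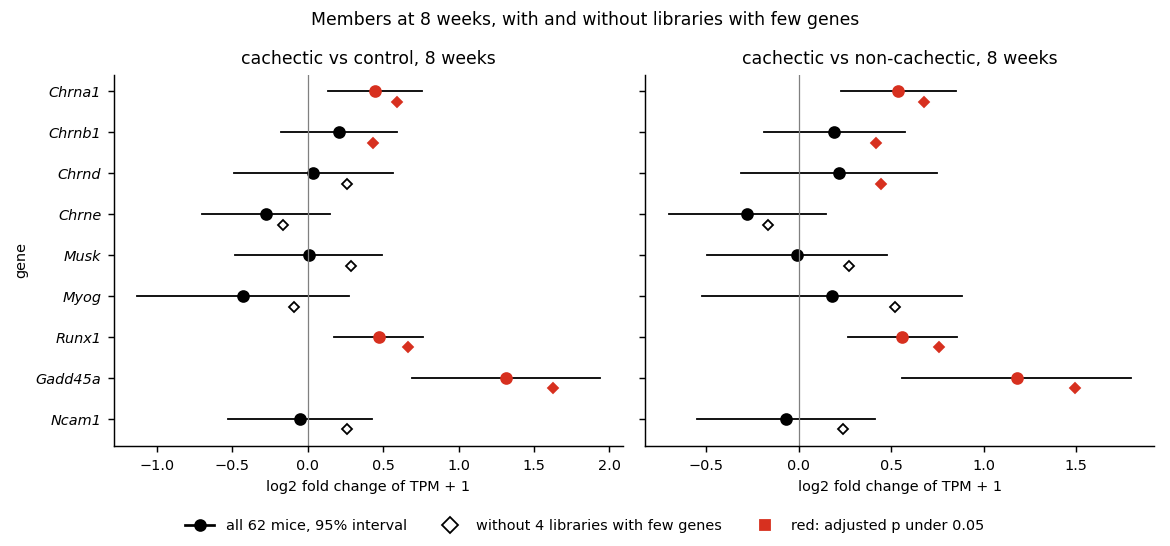
Log2 fold change of TPM + 1 (x axis) of the 9 genes tested at 8 weeks, cachectic against control mice (left) and against non-cachectic mice (right); circles are fits with all 62 mice with 95% intervals, diamonds are fits without the 4 libraries with few genes, and red marks an adjusted p under 0.05. Chrna1, Runx1 and Gadd45a are called in both fits, Chrnb1 in both panels without these libraries, and Chrnd so against non-cachectic mice.

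The non-cachectic tumor was accompanied by no called change. Between non-cachectic and control mice 0 of the 9 genes were called at any time and 0 had an unadjusted p under 0.05, while limma called 4.43% of all genes at 2 weeks and 0% at 4, 6 and 8 weeks. At 8 weeks the fold changes were -0.09 for Chrna1 (95% interval -0.43 to 0.25), -0.09 for Runx1 (95% interval -0.41 to 0.23) and 0.14 for Gadd45a (95% interval -0.54 to 0.81).

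Whether the difference between cachectic and control mice itself changed with time was tested as a difference of differences. Between 8 and 4 weeks and between 8 and 6 weeks, 0 of the 9 genes and 0 genes in all (0%) were called, and 0 of the 9 had an unadjusted p under 0.05. For Gadd45a the difference at 8 weeks exceeded that at 4 weeks by 0.31 (95% interval -0.61 to 1.22), and for Runx1 by 0.02 (95% interval -0.42 to 0.45).

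Around the receptor, 21 genes that organize the synapse were followed, of which 20 were tested. Against controls at 8 weeks 1 was higher and 3 were lower, where 6.65% of all genes were higher and 8.12% lower. The median fold change with all mice was -0.42 beside -0.09 over all genes, and the median without the libraries with few genes is not given here. Once the libraries with few genes were left out, 1 was higher, against 22.2% of all genes, and 5 were lower, with Lrp4 and Ache in addition, against 12.4%. Against non-cachectic mice at 8 weeks 1 was higher and 2 were lower (6.75% and 6.19% of all genes), and without the libraries with few genes 1 and 3 (23.2% and 10.2%). Colq, the collagen tail that anchors acetylcholinesterase in the synaptic cleft, had 20.4, 22.1, 18.3, 14.4 and 10.7 TPM in controls and 2.43 to 7.35 TPM with a median of 5.70 in cachectic mice. No cachectic mouse reached the lowest control, and non-cachectic mice lay between 10.6 and 22.0 TPM. The share of all genes wholly below controls at 8 weeks is not given here, for Colq or for Pdzrn3 and Hdac9 below. Colq fell by 1.54 on the log2 scale against controls (SE 0.30, adjusted p = 0.000164, limma) and by 1.34 against non-cachectic mice (SE 0.30, adjusted p = 0.0011), in all 12 fits that left out 1 mouse.

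Dtna, which encodes α-dystrobrevin, a component of the dystrophin complex that stabilizes receptors at the synapse, was the gene of this list that was higher. At 6 weeks it had 42.3, 40.0, 41.7, 39.3 and 33.2 TPM in cachectic mice, 24.1, 24.2, 26.2, 26.8 and 24.3 TPM in controls and 21.2 to 25.2 TPM in non-cachectic mice, without overlap. At 8 weeks cachectic mice ranged from 20.1 to 44.5 TPM, with replicate 3 lowest and the other 6 above all mice of both groups. The share of all genes so separated without replicate 3 is not given here. The fold changes against controls were 0.62 ± 0.15 at 6 weeks (adjusted p = 0.00608, limma) and 0.63 ± 0.14 at 8 weeks (adjusted p = 0.000925).

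Pdzrn3, a ubiquitin ligase that binds MuSK, fell by 0.75 against controls at 8 weeks (adjusted p = 0.0286, limma), with 4.91 to 21.9 TPM in cachectic mice, all below the control range of 23.0 to 26.6 TPM. Its call was lost without control replicate 2, 3 or 4 or cachectic replicate 3, the last with a fold change of -0.52, and was regained without all 4 libraries with few genes (adjusted p = 0.000837). Prkar1a, a regulatory subunit of protein kinase A, fell by 0.51 against controls (adjusted p = 0.0421); its groups overlapped, and its call was lost in 7 of 12 fits that left out 1 mouse, namely control replicates 1, 2, 3 and 5 and cachectic replicates 1, 3 and 6, with a fold change of -0.35 without cachectic replicate 3.

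**Figure D5:**
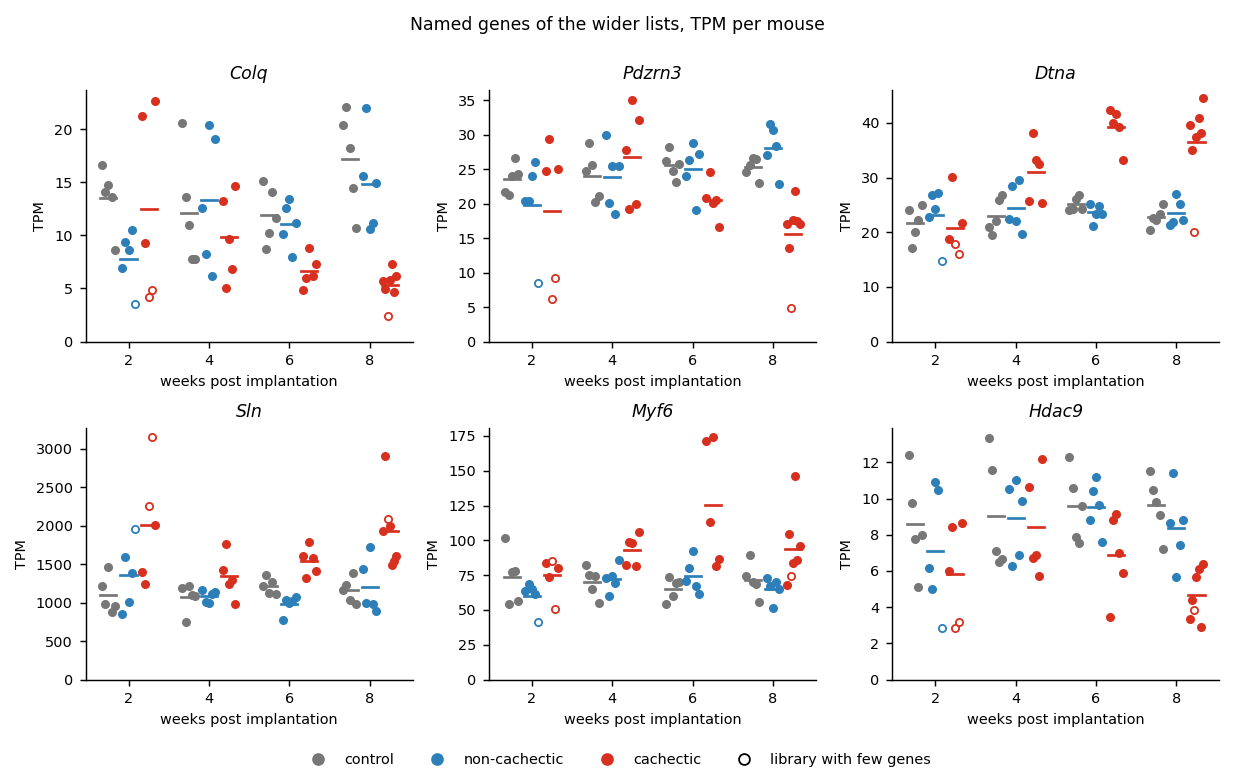
TPM of 6 of the 9 genes named from the wider lists, Colq, Pdzrn3, Dtna, Sln, Myf6 and Hdac9, in each of 62 mice (points) by weeks post implantation and group, with lines at the group means; open points are libraries with few genes. At 8 weeks Colq lies between 2.43 and 7.35 TPM in cachectic mice and between 10.7 and 22.1 TPM in controls.

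Of 18 further genes known to respond to denervation, 16 were tested, and 1 was higher than in controls at 8 weeks (6.65% of all genes) and 0 at 6 weeks (limma; 5.62%), where 3 had an unadjusted p under 0.05 and 4 were higher without the libraries with few genes (26.9%). With the libraries of few genes left out, 5 were higher at 8 weeks, namely Sln, the ubiquitin ligase gene Trim63, the AMP deaminase gene Ampd3, the stress-response factor gene Atf4 and the cell cycle inhibitor gene Cdkn1a, against 22.2% of all genes, and 2 were lower, Igfbp5 and Csrp3, against 12.4%. The median of the list against controls at 8 weeks was -0.05, beside -0.09 over all genes.

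Sln, which encodes sarcolipin, a regulator of the calcium pump of the sarcoplasmic reticulum, ranged from 1484 to 2911 TPM in cachectic mice at 8 weeks and from 985 to 1378 TPM in controls, without overlap, replicate 3 included (0.72 ± 0.18, adjusted p = 0.00409, limma). Non-cachectic mice at 8 weeks had 892 to 1716 TPM, which overlaps the cachectic range, and at 2 weeks the mean was 2009 TPM in cachectic mice and 1097 TPM in controls. Igfbp5, a secreted binding protein for insulin-like growth factors, was lower than in non-cachectic mice at 8 weeks (-1.05 ± 0.35, adjusted p = 0.0355), with 35.6 to 307 TPM against 238 to 404 TPM. Its lowest value was replicate 3; without that mouse alone the fold change was -0.69, and the call was lost, as it was without non-cachectic replicate 1, 2, 4 or 5 or cachectic replicate 1, with adjusted p of up to 0.118.

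Of 12 regulators of muscle transcription that act upstream of these genes, all tested, 1 was higher than in controls at 6 weeks (5.62% of all genes) and 2 were lower at 8 weeks (8.12%). Leaving out the libraries with few genes, 3 were higher at 6 weeks (Mef2a, Myf6 and Sik1), against 26.9% of all genes, and at 8 weeks 2 were higher (Myf6 and Sik1), against 22.2%, and 3 lower (Camk2b, Hdac9 and Mef2c), against 12.4%. Myf6, the myogenic factor MRF4, which is abundant in adult fibers, had 171, 113, 174, 81.5 and 86.8 TPM in cachectic mice at 6 weeks, all above the control range of 54.0 to 73.5 TPM (0.87 ± 0.17, adjusted p = 0.00162, limma). Non-cachectic mice had 61.2 to 92.7 TPM, and 2 of the 5 cachectic mice lay within that range. Hdac9, a histone deacetylase that represses the targets of MEF2 factors, ranged from 2.91 to 6.38 TPM in cachectic mice at 8 weeks, below the control range of 7.23 to 11.5 TPM (-0.93 ± 0.24, adjusted p = 0.00501). Mef2c, which encodes 1 of the MEF2 factors, fell by 0.61 against controls (adjusted p = 0.0349), with 36.0 to 109 TPM against 109 to 124 TPM, and by 0.43 without the libraries with few genes (adjusted p = 0.00419). The call of Mef2c was lost without any 1 of the 5 controls or of cachectic replicates 1, 3 and 6, with adjusted p of up to 0.109.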

How the data were processed

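RNA was taken from the skeletal muscle part of the diaphragm, with 1 library per mouse. Reads were trimmed and mapped to mm10 (GRCm38) by the authors in CLC Genomics Workbench, and the deposited values are TPM per gene, with the same total of 1000000 in each library. Strand use, annotation release and the handling of multi-mapping reads are not given in the sources used here, and the labels and the methods name different TruSeq kits, so values of overlapping genes are uncertain. Depth in reads cannot be had from TPM, and the number of mice limits the precision.

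Groups and weeks came from the sample labels. Values were analysed as log2(TPM + 1) for the 13578 genes that reached 1 TPM in 5 or more mice. limma (3.58.1, R 4.3.3, with a mean-dependent prior spread) was run with 1 mean per condition (12 in all), with Benjamini-Hochberg adjustment separately in each of 15 comparisons. The rank tests of the study (Kruskal-Wallis and Dunn) were an alternative. The script was tested on simulated data. The 10 genes and the wider gene lists were chosen with earlier results of these data known. The genes named are the 10 and, from the lists of synapse organizers, denervation-responsive genes and upstream regulators, the 9 called in cachectic against control or non-cachectic mice at 6 or 8 weeks; 2 genes of these lists are not reported here, and the list genes named only by their call without the libraries with few genes were added after their values were seen. Libraries with under 17000 genes above 0, and those with a mean log2 level of liver markers over 7, were left out in alternatives chosen after seeing the data. Promoter windows came from RefSeq (GRCm38.p6) and positions from GENCODE M21; plots were made in matplotlib 3.10.9 (Python 3.11.15).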

Additional observations from a re-analysis of the deposited data

Results flagged for a closer look

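Within each condition of 5 or 7 mice, the highest or lowest mouse was compared with the rest by its gap to the nearest mouse relative to the range, at Dixon's 95% limit. Of 120 such groups, 14 passed; chance alone passes about 1 in 20. Of the 14, 6 were the lowest value of cachectic replicate 3 at 8 weeks, a library with few genes: Chrnb1 with 12.1 TPM, Chrnd with 1.44 TPM, Musk with 0.756 TPM, Myog with 1.13 TPM, Runx1 with 0.298 TPM and Ncam1 with 0.379 TPM. A further 3 were in the libraries with few genes at 2 weeks, with Chrnd at 0.837 TPM and Musk at 2.02 TPM in non-cachectic replicate 5, both lowest, and Chrng at 0.705 TPM in cachectic replicate 3, which was highest. The other 5 were in libraries with the usual number of genes. They were Chrnd in control replicate 4 at 2 weeks with 1.67 TPM and in non-cachectic replicate 2 at 6 weeks with 2.18 TPM, Chrne in cachectic replicate 2 at 6 weeks with 4.40 TPM and Musk in cachectic replicate 4 at 6 weeks with 4.68 TPM, each the lowest of its group, and Myog in cachectic replicate 4 at 4 weeks with 15.5 TPM, the highest.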

How the results depend on the processing

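The number of the 9 genes called moved when the libraries with few genes were left out, which changes the spread of the fit and, at 2 and 8 weeks, the group means. Against controls the counts with all mice were 1, 0, 1 and 3 at 2, 4, 6 and 8 weeks, and against non-cachectic mice 0, 0, 0 and 3. Without the libraries with few genes, and also without these and the libraries high in liver markers, they were 0, 2, 4 and 4 against controls and 2, 3 and 5 against non-cachectic mice at 4, 6 and 8 weeks. With array quality weights they were 0, 2, 4 and 4, and 2, 3 and 6. With only the conditions compared in the fit they were 0, 0, 3 and 0, and 1, 5 and 0, and with Dunn's rank test 0 in every comparison, where 0 to 3 genes had an unadjusted p under 0.05 in each. Without the libraries high in liver markers the count was 0 against controls at 2 weeks and 1 against non-cachectic mice at 6 weeks. A pseudocount of 0.1 left 1 gene against controls at 8 weeks. With no filter, and with mitochondrial genes removed, 2 genes were called against controls at 2 weeks. Quantile normalization called 1 gene in both comparisons at 4 weeks, and median-ratio scaling 1 gene against non-cachectic mice at 4 and 6 weeks. Leaving out 1 mouse gave 0 to 2, 1 to 2 and 1 to 4 genes against controls at 2, 6 and 8 weeks, and 0 to 1, 0 to 1 and 2 to 3 against non-cachectic mice at the same weeks. All calls at 4, 6 and 8 weeks were of higher genes. The comparisons of non-cachectic with control mice, of control mice over time and of the differences over time had 0 calls in every setting run. Over all genes, 2005 were called against controls at 8 weeks, 552 with only the conditions compared, 1121 by Dunn's test and 4697 without the libraries with few genes.

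With the replicate number as a block, 1 gene was called in each comparison at 8 weeks, Gadd45a against controls (adjusted p = 0.0242, limma) and Chrna1 against non-cachectic mice (adjusted p = 0.0449), and the fold changes against controls turned to -0.053 for Chrnd and -0.25 for Musk. Only the cachectic group held replicates 6 and 7 at 8 weeks, so with the block these mice did not inform the comparisons. The numbers do not pair the mice: 18 of 60 correlations between the deviations of same-numbered mice were over 0.1 (range -0.63 to 0.39), and 11 of 60 were the best of their mouse. The block kept the counts of the other comparisons.

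Directions turned only in fold changes that were not called with all mice. Against controls at 6 weeks, median-ratio scaling and quantile normalization gave -0.0044 and -0.0284 for Chrna1 and -0.0068 and -0.0450 for Ncam1; these scalings moved the median of all genes from 0.17 to 0.01 and -0.01. Against controls at 8 weeks, Chrnd was -0.0713 with mitochondrial genes removed. Musk was -0.0683 with a pseudocount of 0.1, -0.1251 with mitochondrial genes removed and -0.0160 without the libraries high in liver markers. Myog was 0.1014 with array weights and 0.0188 without both kinds of libraries. Ncam1 was 0.0002 with quantile normalization, 0.1290 with array weights, 0.2568 without the libraries with few genes and 0.2549 without both kinds, and its mean rank was 6.94 higher by Dunn's test. Against non-cachectic mice at 6 weeks, Chrne was -0.0992 with median-ratio scaling, -0.1161 with quantile normalization, -0.1118 with mitochondrial genes removed and -0.0235 with array weights. Against non-cachectic mice at 8 weeks, Musk was 0.0381 with median-ratio scaling, 0.0639 with quantile normalization, 0.3610 with array weights, 0.2728 without the libraries with few genes and 0.3040 without both kinds, with a mean rank 8.06 higher. Ncam1 was 0.2457 with array weights, 0.2388 without the libraries with few genes and 0.2370 without both kinds, with a mean rank 5.34 higher. Leaving out 1 mouse gave, against controls at 8 weeks, -0.0712 to 0.2627 for Chrnd, -0.1200 to 0.2889 for Musk and -0.1862 to 0.2568 for Ncam1, against non-cachectic mice at 8 weeks -0.1362 to 0.2728 for Musk and -0.1764 to 0.2388 for Ncam1, and at 6 weeks -0.0300 to 0.1741 for Chrne. Apart from the settings that leave out libraries, where fewer samples enter, the cause was not tested. The number of mice limits what could be called and read depth is not known from TPM.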
